A study of Mus musculus with 474 samples.

Results

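The 41 genes described here encode the machinery that makes ribosomes, from the enzyme that transcribes ribosomal RNA to the factors that assemble and export the subunits. They were chosen by name, by matching gene identifiers in both deposited count tables to mouse symbols, and all 41 of the listed genes were found among the 55450 genes of the tables. By role they comprise 5 genes of RNA polymerase I transcription, 8 of the small nucleolar ribonucleoproteins (snoRNPs) that modify and guide cutting of ribosomal RNA, 4 abundant nucleolar proteins with several roles, 12 of small subunit assembly and 12 of large subunit assembly.

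Ribosome synthesis begins in the nucleolus, where RNA polymerase I copies the ribosomal RNA genes into a long precursor. SnoRNPs methylate and pseudouridylate this precursor, assembly factors fold and cleave it while ribosomal proteins join, and the finished subunits leave for the cytoplasm. The process takes a large part of a growing cell's energy and is under the control of growth signals, of the transcription factor Myc and, when it is disturbed, of p53. Haematopoietic stem cells (HSCs), the bone marrow cells that renew the blood, are known for low protein synthesis at rest.

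Transcripts of single daughters of HSCs were measured by Smart-seq2, which amplifies polyadenylated RNA along its whole length and keeps each cell in a well of its own. The HSCs came from bone marrow of wild type male C57BL/6JRj mice aged 12 to 19 weeks, with no treatment or other genotype named. Each HSC was imaged through its first division in culture, and its daughters were picked with a micromanipulator. The deposited metadata call the daughter that received more lysosomes high and its sister low. All comparisons use the divisions with both daughters sequenced, and a further 68 cells without a sequenced sister entered only the levels.

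The divisions came from 9 culture experiments with 11 to 38 divisions each, 5 sequenced in run 4 and 4 in run 5 (67 divisions), and the experiment is the replicate in every comparison. How many animals an experiment used is not given in the sources used here, so p-values measure only the spread between these cultures, which may be technical. Total counts on genes ran from 76735 to 2444858 per cell (median 846198), with a median of 9867.5 detected genes, and no library was identical to another. The cells carried HSC transcripts. Of the 8 HSC markers, Mecom, Hlf, Kit and Ly6a had a count in 97.9% to 100% of cells and Slamf1 in 28.7%, whereas Hoxb5 was listed at 0 in all cells, which allows a share of up to 0.633% of cells with a count and sets no limit on cells that express the gene. Markers of other blood cells had a count in median shares of 1.16% over 6 lymphoid, 3.69% over 6 myeloid, 7.28% over 6 erythroid and 56.2% over 6 megakaryocyte genes. Mpo, Ctsg, Cd3e and Rag1 were at 0, whereas Prtn3 (74.1%), Pf4 (69.6%), Vwf (67.3%), Hbb-bt (63.1%) and Csf3r (50.2% of cells) were detected widely.

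Levels are counts scaled to a common total of counts on genes (CPM), so they are relative to the rest of the transcriptome, and they were divided by transcript length (CPM per kilobase) where genes are set against each other. The length was that of the longest protein-coding transcript with the best principal rank in the annotation. Other transcripts were not tried, so the order per kilobase depends on that choice. The members were expressed in nearly all daughters. A count was seen in 86.5% to 100% of cells, with a median of 98.1%, beside a median of 90.3% for the 11745 genes detected in at least 20% of cells. Together the 41 genes took 0.656 ± 0.0641% of counts (SD over 9 experiments), from 0.553% to 0.793%.

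Levels per kilobase spanned 4.998 to 605.6 CPM per kilobase, with a median of 39.3. Npm1 (nucleophosmin, a nucleolar scaffold and histone chaperone) was highest at 605.6 CPM per kilobase, and its CPM values over the experiments had a lowest of 812, a median of 1044 and a highest of 1087. Nop58, a core protein of the box C/D snoRNPs that methylate ribosomal RNA, followed with 214.5 CPM per kilobase (303.9 to 491 CPM over experiments, median 354.8). Ncl (nucleolin, which binds the precursor RNA) gave 149.2 CPM per kilobase over the 8202 bases of the transcript used. It had the most counts of all members, between 967 and 1522 CPM with a median of 1185. The experiments' values per kilobase of Nop58 lay wholly below those of Npm1, overlapped those of Ncl (149.2) and Nhp2 (137.3) and lay wholly above those of Nop10 (132.8 CPM per kilobase). On GRCm38 (GENCODE M21), Ncl lies on the minus strand at chr1:86344719-86359400, Npm1 on the minus strand at chr11:33152287-33163206 and Nop58 on the plus strand at chr1:59684971-59719044, as whole genes with exons and introns. Ncl and Npm1 alone held 33.7% of the CPM of all members.

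The roles differed in abundance. The nucleolar proteins had a median of 127.7 CPM per kilobase. The 8 snoRNP genes had a median of 95.7 CPM per kilobase and ranged from 39.3 for Gar1, a box H/ACA protein, to Nop58. In the nucleolar group the DEAD-box helicase Ddx21 was lowest at 31.9. Large subunit factors had a median of 41.8 and RNA polymerase I genes of 27.3, where Polr1c, a subunit shared with RNA polymerase III, was highest (48.6) and Polr1a, the largest subunit, lowest (7.58 CPM per kilobase). Small subunit factors had the lowest median, 22.5, from 52.5 for Wdr43 down to 4.998 for Imp4, whose annotated principal transcript is long at 5836 bases.

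The members varied moderately between experiments, with a coefficient of variation from 4.64% to 27.5% and a median of 15.9%. Experiment 75 gave the highest value of 26 members and experiment 77 the lowest of 17. No such count over all genes is given here, so this may not be particular to the members. Experiment 75 had the fewest detected genes per cell (median 9319.5) and experiment 77 the lowest median total (541601.5), and the part of either in these levels was not tested. Run 4 was higher for 27 members and run 5 for 14, and for 0 members did the experiments of the runs separate. These run counts, too, have no share over all genes beside them. A total of 7 members (Nop56, Nop58, Dkc1, Ncl, Gnl3, Wdr43 and Ppan) carry 21 annotated snoRNA genes in the same orientation, and those 21 held 0 counts in all cells. Exons of 17 members overlap exons of a gene on the opposite strand, among them Nop56 with Idh3b and Dkc1 with Mpp1, and whether counting used strand is not given in the sources used here.

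**Figure D1:**
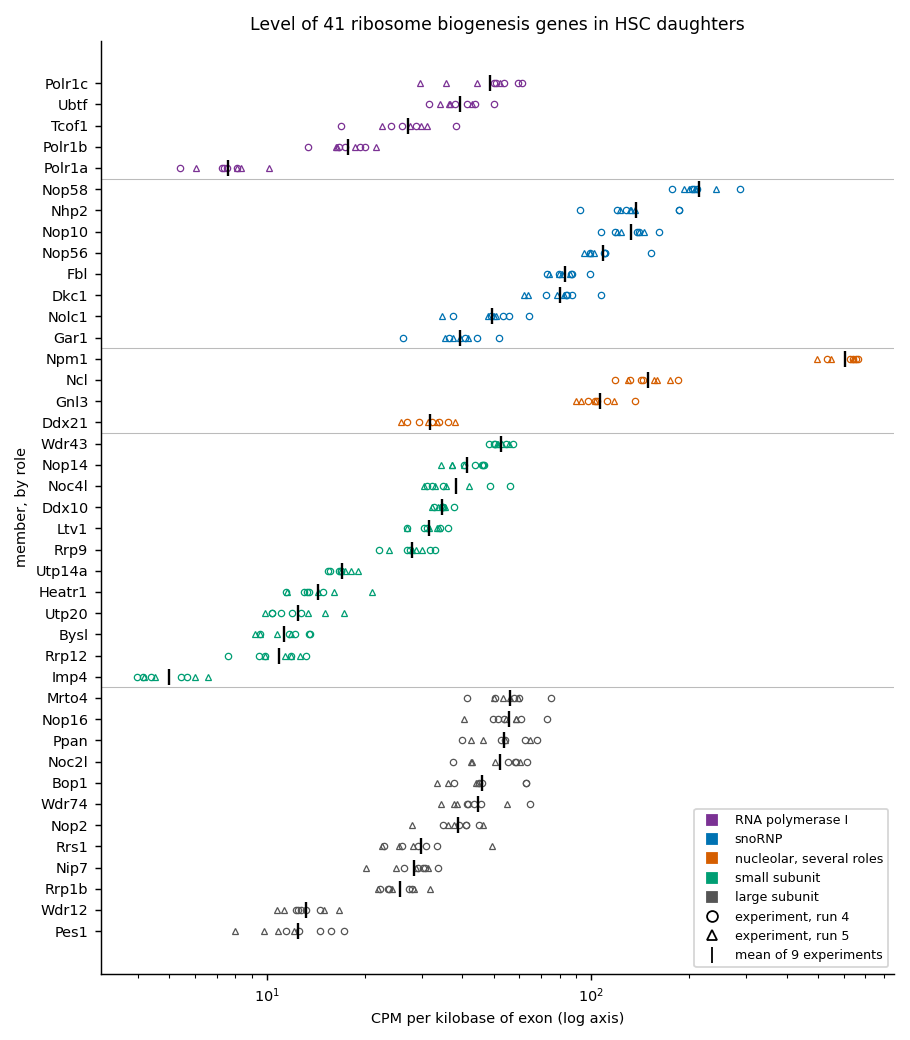
Level of each member in CPM per kilobase of exon on a log axis, grouped by role. Circles are the 5 experiments of run 4, triangles the 4 of run 5 and black bars the mean of all 9. Npm1, Nop58 and Ncl stand to the right, and Imp4 is lowest at 4.998.

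The relation to the cell cycle was examined by ordering the divisions of each experiment by a G1/S score, the mean log2(CPM + 1) of 42 detected replication genes in both daughters. The 64 divisions at the upper end of the order (high class) were set against the 64 at the lower end (low class), with counts summed per experiment and class. No member belongs to the score. Ribosome biogenesis genes were higher in divisions with a high G1/S score. Of 41 members, 26 rose and 0 fell (edgeR quasi-likelihood test, Benjamini-Hochberg adjusted p under 0.05), where 20.6% of all 11957 genes tested passed in either direction 11.6% rose and 9.0% fell. The median log2 difference was 0.53 over the members and -0.02 over all genes tested, and 40 of 41 estimates were positive. In 19 members the high class was higher in each of the 9 experiments, which held for 7.22% of genes tested. For 0 members did the class values separate wholly, which 1.77% of genes tested did.

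All 8 snoRNP genes rose, by 0.57 to 1.082 on the log2 scale. Nhp2, a box H/ACA protein, changed most. Its level in the low class ran from 52.1 to 190.7 CPM with a median of 77.99, and in the high class from 119.8 to 276.4 with a median of 155.3. The low class of experiment 75 (190.7) reached into the range of the high class, while every other low value stayed below it. The log2 difference was 1.082 ± 0.16 (SE; adjusted p = 0.00047). Dkc1, the pseudouridine synthase dyskerin, rose by 0.79 ± 0.11 (adjusted p = 0.000258), from 166.5 ± 43.2 to 280.3 ± 48.9 CPM (SD, n = 9 experiments). Nop56, the box C/D partner of Nop58, rose by 0.75 ± 0.13 and the methyltransferase gene Fbl (fibrillarin) by 0.66 ± 0.11. Nop10, the smallest H/ACA protein, rose least in this group, by 0.57 ± 0.11 (adjusted p = 0.00305), and still did so in 9 of 9 experiments.

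Among the abundant nucleolar proteins 3 of 4 rose. Ncl had 766 to 1386 CPM in the low class (median 837) and 1172 to 1807 in the high class (median 1431). Apart from experiment 75, whose low class reached 1386, the low class stayed below every high value. Its log2 difference was 0.72 ± 0.10 (adjusted p = 0.000249). Npm1 rose by 0.51 ± 0.10 (adjusted p = 0.00291), from 798 ± 152.7 to 1129 ± 187.4 CPM. Gnl3 (nucleostemin, a GTPase of the large subunit pathway and the cell cycle) rose by 0.46 ± 0.11. Ddx21 gave 0.46 ± 0.16 with an adjusted p of 0.0573.

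In the RNA polymerase I group 2 of 5 rose. Tcof1 (treacle, which recruits the polymerase to ribosomal DNA) had 68.997 to 130.4 CPM in the low class (median 76.1) and 114.1 to 243.4 in the high class (median 166.6). Its log2 difference was 0.97 ± 0.12 (adjusted p = 0.000153), the smallest adjusted p of the members. Polr1b, the second-largest subunit, rose by 0.67 ± 0.21 (adjusted p = 0.0372). Polr1c gave 0.18 ± 0.16 (adjusted p = 0.456), with overlapping values of 26.3 to 84.3 CPM in the low and 44.0035 to 102.1 in the high class.

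Of the small subunit factors 6 of 12 rose, with a median log2 difference of 0.49 over the 12. Rrp12, a late assembly and export factor, rose by 1.04 ± 0.33 (adjusted p = 0.0376), from a low class of 4.89 to 46.7 CPM to a high class of 41.6 to 70.1. The estimate is wide, and leaving out any of 4 of the experiments (68, 69, 76 or 77) took its adjusted p to between 0.0527 and 0.0801. The same held for Polr1b without any of 6 experiments (68, 69, 72, 73, 76 or 77), with values from 0.0504 to 0.0781. The helicase gene Ddx10 was the only member with a negative estimate in this fit, -0.15 ± 0.15 (adjusted p = 0.509). It had 72.1 to 142.3 CPM in the low class and 80.2 to 130.3 in the high class, and was higher in the high class in 3 of 9 experiments.

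Large subunit factors rose in 7 of 12 cases. Mrto4, which takes part in assembly of the ribosomal stalk, had 8.44 to 60.9 CPM in the low class (median 31.7) and 53.9 to 76.8 in the high class (median 63.2). The low class of experiment 75 was alone in overlapping the high class. The log2 difference was 1.082 ± 0.22 (adjusted p = 0.00481). Bop1, a member of the complex that also contains Pes1 and Wdr12, rose by 0.54 ± 0.13 (adjusted p = 0.0108). Its partner Pes1 gave 0.16 ± 0.16 (adjusted p = 0.526) and its partner Wdr12 0.24 ± 0.15 (adjusted p = 0.275), and whether the partners differ from Bop1 was not tested.

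**Figure D2:**
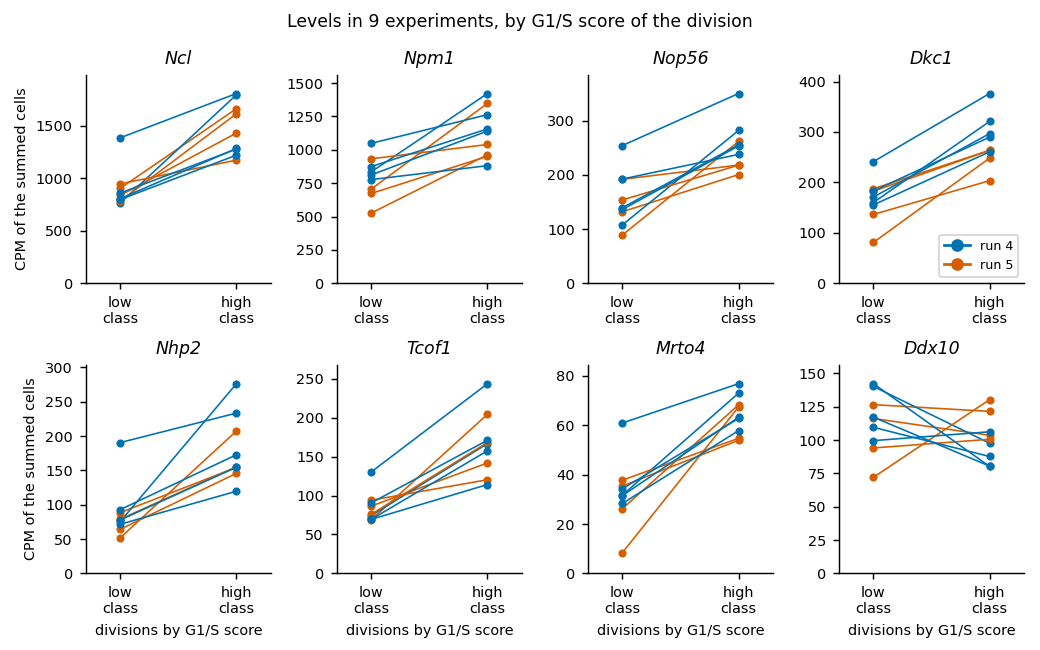
CPM of the summed cells of the low and the high G1/S class in each of 9 experiments, joined by a line, for 8 members (run 4 blue, run 5 orange, axes from 0). For 7 of the genes every line goes up, and for Ddx10 it does so in 3 of 9 experiments.

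These counts depended on which cells entered. With run 4 alone 15 members rose (4.02% of genes tested) and with run 5 alone 2 (2.75%), at median log2 differences of 0.60 and 0.52. Since the score and the members come from the same libraries, cells were also grouped by the score of their sister, an alternative chosen after the data had been seen. Then 13 members rose and 0 fell, with a median of 0.36, beside 7.54% of genes tested that rose and 4.76% that fell.

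Other measures moved with the G1/S classes. The high class had more detected genes per cell (10133 ± 491 against 9323 ± 385.6, higher in 9 of 9 experiments) and higher median totals (in 8 of 9). Of 7 HSC markers tested 6 fell, and the mean log2(CPM + 1) of the 8 ran from 4.88 to 5.95 in the high class and from 5.44 to 6.91 in the low. Among markers of other blood cells 0 were called, with the erythroid list at 0.37 to 1.302 in the high and 0.15 to 0.78 in the low class. Of 53 mitotic genes 33 rose. When each member was regressed on the scores, log2 total counts and detected genes together within an experiment, 26 rose with the G1/S score, beside 9.21% of genes tested. The part of the HSC markers in these differences was not tested. In all, 49 divisions lay within 0.1 SD of a class limit.

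Divisions were classed in the same way by a G2/M score of 53 mitotic genes. These classes share divisions with the G1/S classes. Of the members 13 of 41 rose and 0 fell, where 22.8% of 11947 genes tested passed, 12.9% rose and 9.83% fell. In 5 members the high class was higher in every experiment (7.43% of genes tested), and for 0 did the classes separate wholly (2.52%). The median log2 difference was 0.34 over members and -0.002 over all genes tested. Those that rose were Tcof1, 5 snoRNP genes (Nhp2, Nop10, Fbl, Nop56 and Nop58), Ncl and Npm1, Nop14, Noc4l and Ltv1 of the small subunit, and Mrto4 and Bop1 of the large.

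Nhp2 again changed most, by 1.12 ± 0.18 (adjusted p = 0.000827), from 86.1 ± 32.96 CPM in the low class to 172.3 ± 24.2 in the high. Ncl rose by 0.64 ± 0.14 and Npm1 by 0.49 ± 0.12. Tcof1 rose by 0.76 ± 0.14 (adjusted p = 0.00208) and Mrto4 by 0.77 ± 0.16 (adjusted p = 0.00388). Noc4l, a small subunit factor, rose by 0.85 ± 0.21 (adjusted p = 0.0117). The chaperone gene Nolc1, which serves snoRNPs, gave 0.28 ± 0.15 (adjusted p = 0.196), Dkc1 0.52 ± 0.19 (adjusted p = 0.0734) and Polr1b 0.26 ± 0.17. Lowest was Utp20, a scaffold of the small subunit precursor, at -0.14 ± 0.14, and Ddx10 gave -0.11 ± 0.13. Ubtf, the upstream binding factor of ribosomal DNA, gave 0.02 ± 0.10 and the methyltransferase gene Nop2 0.03 ± 0.17. The mitotic classes differed by 872 ± 419.3 detected genes (SD over experiments, higher in 9 of 9), and 6 of 7 HSC markers tested fell, with both myeloid markers tested. Of 5 megakaryocyte markers tested 1 rose, Itga2b (named after its value was seen), by 1.56 (adjusted p = 0.0295). The mean of the erythroid list was 0.76 in the high and 0.49 in the low class on the log2(CPM + 1) scale, higher in 9 of 9 experiments. The part of these markers in the differences was not tested. Some calls were lost when a single experiment was left out. Fbl gave an adjusted p of 0.0574 without experiment 77. Nop56 passed 0.05 only with each of experiments 60, 69, 72, 73, 76 and 77 included (up to 0.0922 without one), and Bop1 only with each of 68, 72, 73, 74, 76 and 77 (up to 0.0911).

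**Figure D3:**
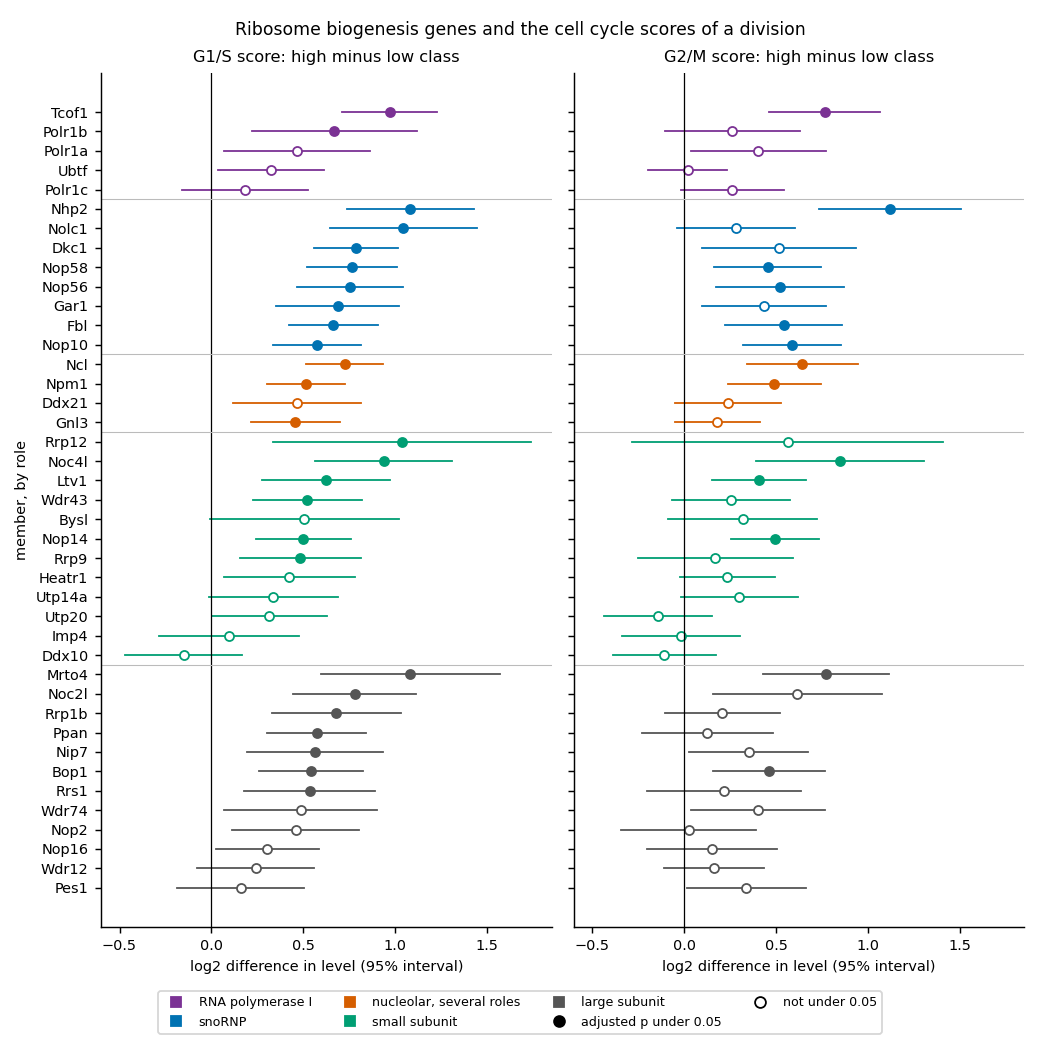
Log2 difference between the high and the low class of divisions for each member, by G1/S score (left) and by G2/M score (right), with 95% intervals from edgeR. Filled points passed an adjusted p of 0.05, 26 on the left and 13 on the right, and no filled point lies below 0.

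Both scores are correlated across divisions (Pearson's r = 0.586 over division means), so each member was also regressed on both together within an experiment, and the 9 slopes were tested with limma. On the G1/S score 30 members rose and 0 fell, with a median slope of 0.42 on the log2 scale per unit of the score's SD, where 14.8% of genes tested rose and 3.54% fell. The G1/S calls of Npm1 (slope 0.16, adjusted p = 0.103), Nop14 (adjusted p = 0.098), Wdr43 (0.0597) and Nip7 (0.117) were not made in this fit. On the G2/M score 2 rose, Tcof1 (0.27 ± 0.05) and Nhp2 (0.23 ± 0.07), and 3 fell, Nolc1 (by -0.24 ± 0.06), Gnl3 (-0.20 ± 0.06) and Ppan, a large subunit factor (-0.33 ± 0.08), with a median of 0.01. Of genes tested, 12.0% rose and 5.59% fell with that score. Nolc1 had the opposite sign on the G1/S score, 0.77 ± 0.07 (adjusted p = 1.1e-05). The G2/M calls of Ncl, Npm1, Fbl, Nop56, Nop58, Nop10, Nop14, Noc4l, Ltv1, Mrto4 and Bop1 were likewise not made. The difference between a member's slopes was not tested.

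Members with the largest and smallest G1/S differences can be set beside their upstream sequences, taken from RefSeq on GRCm38.p6. The promoter table held 35 of the 41 members. The 250 bases before the start are printed for the 3 members of the table with the largest difference and then for the 3 with the smallest, 5′ to 3′ in the gene's direction. Capitals mark the E-box CACGTG to which Myc can bind, the ETS-type motif CCGGAAG and the TATA-type sequence TATAAA, searched on both strands at any position.
Nhp2 (chr11:51619523-51619772, plus strand): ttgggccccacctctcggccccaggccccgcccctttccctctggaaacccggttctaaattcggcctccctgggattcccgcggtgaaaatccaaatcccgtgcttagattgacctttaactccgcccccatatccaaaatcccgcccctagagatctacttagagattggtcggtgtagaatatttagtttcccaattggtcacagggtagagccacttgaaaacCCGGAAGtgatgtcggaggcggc
Mrto4 (chr4:139352577-139352826, minus strand): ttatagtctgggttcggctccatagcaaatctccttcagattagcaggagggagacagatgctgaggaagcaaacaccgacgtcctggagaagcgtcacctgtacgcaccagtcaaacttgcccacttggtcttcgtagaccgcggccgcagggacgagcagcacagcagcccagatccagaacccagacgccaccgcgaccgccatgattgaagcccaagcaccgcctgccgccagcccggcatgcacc
Nolc1 (chr19:46075597-46075846, plus strand): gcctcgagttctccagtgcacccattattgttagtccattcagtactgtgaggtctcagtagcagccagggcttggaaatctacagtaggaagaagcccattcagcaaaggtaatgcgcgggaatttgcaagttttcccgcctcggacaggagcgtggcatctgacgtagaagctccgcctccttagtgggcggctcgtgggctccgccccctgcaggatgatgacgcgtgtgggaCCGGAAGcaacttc
Pes1 (chr11:3963725-3963974, plus strand): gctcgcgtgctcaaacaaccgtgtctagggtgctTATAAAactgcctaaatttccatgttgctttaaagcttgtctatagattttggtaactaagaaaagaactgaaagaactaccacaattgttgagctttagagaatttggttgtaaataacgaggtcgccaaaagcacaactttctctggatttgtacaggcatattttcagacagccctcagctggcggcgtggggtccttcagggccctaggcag
Imp4 (chr1:34439579-34439828, plus strand): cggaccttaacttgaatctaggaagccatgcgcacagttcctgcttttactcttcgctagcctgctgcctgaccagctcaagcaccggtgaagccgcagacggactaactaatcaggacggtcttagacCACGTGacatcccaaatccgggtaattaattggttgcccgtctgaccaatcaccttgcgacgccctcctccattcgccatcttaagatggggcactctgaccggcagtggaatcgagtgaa
Ddx10 (chr9:53248113-53248362, minus strand): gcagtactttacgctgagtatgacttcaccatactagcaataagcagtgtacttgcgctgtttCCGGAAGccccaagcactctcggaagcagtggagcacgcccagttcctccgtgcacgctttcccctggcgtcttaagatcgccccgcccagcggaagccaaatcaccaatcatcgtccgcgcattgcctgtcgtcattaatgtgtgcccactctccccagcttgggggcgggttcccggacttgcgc

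In these 250 bases the ETS-type motif stands before Nhp2, Nolc1 and Ddx10 and the E-box before Imp4, while none was found before Mrto4. The sequence TATAAA stands before Pes1, near the end of the window away from the start. For these counts a symbol with several windows was counted if any of them held the motif. Over the members CACGTG occurred upstream of 2 of 35 symbols (5.71%), against 6.86% of all symbols in the table and 10.1% of those tested for G1/S. CCGGAAG occurred in 10 of 35 (28.6%), against 7.83% of all symbols and 16.5% of those tested. TATAAA occurred in 3 (8.57%), against 14.3% and 7.38%. With the 50 bases after the start included, CACGTG was in 6 of 35 (17.1%), against 12.1% of tested symbols. The matches are a description of these windows.

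Sharing between sisters was measured by an intraclass correlation of log2(CPM + 1) in each experiment. Values near 1 mean that sisters differ little compared with divisions, and values near 0 that they differ as much as cells of different divisions. Of 41 members 14 had a positive correlation (limma on Fisher z over 9 experiments, adjusted p under 0.05) and 0 a negative one, where 16.9% of 11745 genes passed with a positive and 0.00851% with a negative value. The median was 0.15 over the members and 0.09 over all genes, and 37 members had positive estimates.

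Ncl was shared most. Its correlation had a lowest value of 0.11, a median of 0.47 and a highest of 0.77 over the experiments and averaged 0.44 (95% interval 0.31 to 0.56, adjusted p = 5.67e-06). Nop58 (0.41, interval 0.27 to 0.54) and Npm1 (0.40, 0.27 to 0.52) followed, each positive in 8 of 9 experiments. Further snoRNP genes that passed were Nop10 (0.34), Nhp2 (0.33), Fbl (0.28) and Nop56 (0.28). Dkc1 gave 0.19 (adjusted p = 0.0824) and Nolc1, lowest of its group, 0.17 (adjusted p = 0.13). Polr1b (0.25) and Polr1c (0.21) passed in the polymerase group, where Ubtf was lowest with 0.06 (interval -0.10 to 0.21).

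Of the 12 small subunit factors 0 passed at the adjusted threshold (2 at an unadjusted p under 0.05), from -0.06 for Imp4 to 0.21 for Bysl, a late small subunit factor with an adjusted p of 0.0725. Of the large subunit factors Mrto4 (0.27), Nop16 (0.25), Noc2l (0.23) and Rrp1b (0.22) passed, Bop1 gave 0.11 (interval -0.03 to 0.25), and Wdr12 was lowest with -0.03 (interval -0.18 to 0.12). The levels of these genes differ, and so did the SD within divisions, which was 0.51 on the log2 scale for Ncl and 2.05 for Rrp12. This SD holds counting noise and differences between sisters together, and their parts were not tested. The part of level in the order of the members was not tested.

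With the cell cycle scores and their squares regressed out of each gene, 4 members passed, beside 5.83% of genes tested. These were Ncl (0.34), Npm1 (0.26), Nop58 (0.25) and Nop10 (0.23). The estimate was lower than before in 40 of 41 members, and the median went from 0.15 to 0.09. Over all genes the share that passed also fell, from 16.9% to 5.83%. How many of their estimates fell is not given here, so the drop may not be particular to the members. Nhp2 went from 0.33 to 0.08, whereas Polr1c stood at 0.21 and 0.20. With depth and detected genes regressed out instead, 9 members passed, beside 14.4% of genes tested. In run 5 alone 2 passed (4.74% of genes tested) and in run 4 alone 10 (12.2%). Without experiment 76, Polr1b had an adjusted p of 0.0619.

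**Figure D4:**
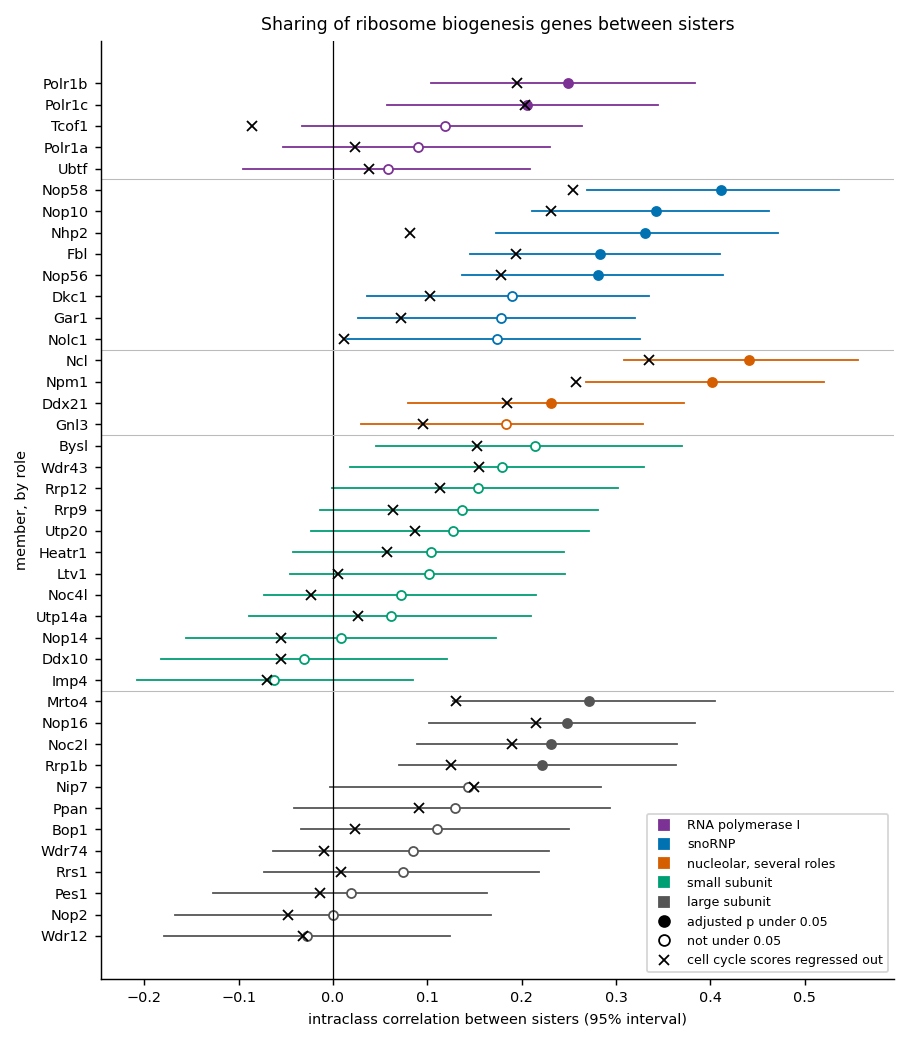
Intraclass correlation between sisters for each member, with its 95% interval over 9 experiments (circles, filled where the adjusted p was under 0.05) and the estimate with cell cycle scores regressed out (crosses). Ncl, Nop58 and Npm1 are highest at 0.44, 0.41 and 0.40, and nearly all crosses lie left of their circles.

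The members varied together over divisions. After centring on the experiment, 810 of 820 pairs of members had a positive Pearson's r over the division means, with a median of 0.33. The highest value, 0.77, was that of Ncl and Npm1. Pairs of other genes were not counted. A member had a median r of 0.58 with the mean of the other members, where genes outside the members had 0.08 with the mean of all members. Pairs within a role had a median of 0.33 and pairs across roles of 0.33. Ncl followed the mean of the other members most closely (r = 0.81), then Nop58 (0.78), Nolc1 (0.75) and Nop56 (0.75). Ddx10 (0.12), Polr1c (0.23) and Ubtf (0.29) followed it least. These correlations are across divisions that share libraries, depth and totals, and are descriptions.

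A member score, the mean log2(CPM + 1) of all 41 genes, summarised each cell. Over division means it had r = 0.63 with the G1/S score (0.39 to 0.78 in single experiments), 0.36 with the G2/M score, 0.51 with detected genes and 0.26 with log2 total counts. With the G2/M score regressed out of both, r with G1/S was 0.55, and with the G1/S score regressed out, r with G2/M was -0.02. Differences between sisters in the member score had r = 0.45 with their differences in G1/S score and 0.15 with those in G2/M score. Between sisters the score had a pooled intraclass correlation of 0.37, positive in 9 of 9 experiments and ranging from 0.03 to 0.78.

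**Figure D5:**
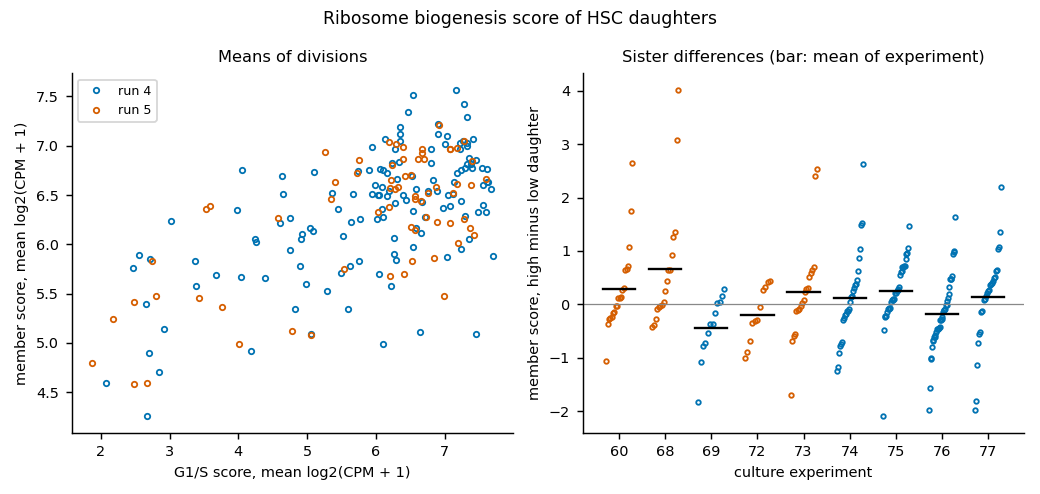
Left, member score against G1/S score for the means of divisions (r = 0.63, run 4 blue, run 5 orange). Right, difference in member score between the high and the low lysosome daughter of each division by experiment, with the mean as a bar; 6 of 9 means lie above 0.

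Inheritance of lysosomes, the degradative organelles that also carry nutrient sensing, was compared between the high and the low daughters of the divisions. The levels of the members were not shown to differ. Of 41 members 0 passed (edgeR quasi-likelihood test, adjusted p = 0.9996 for each of them), as did 0 of all 12899 genes tested (0.0%). At an unadjusted p under 0.05 there were 2 members, both higher in high daughters, and 543 genes (4.21%; 2.19% were higher). DESeq2 called 4 genes (Pip5k1b, Reps2, Sorbs2 and Zfp658) and 0 members. Estimates were positive for 25 members and negative for 16, with a median log2 difference of 0.04.

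The largest differences were in large subunit factors. Rrp1b, a nucleolar protein of large subunit maturation, had 94.7 to 153.6 CPM in low daughters (median 113.2) and 104.1 to 187.8 in high daughters (median 139.6). The values overlapped widely, and the log2 difference was 0.24 ± 0.09 (unadjusted p = 0.0186, higher in 7 of 9 experiments). Bop1 gave 0.20 ± 0.08 (unadjusted p = 0.0236, 8 of 9 experiments). Ncl stood at 1282 ± 204.2 CPM in high and 1235 ± 189.6 in low daughters, a log2 difference of 0.05 with a 95% interval from -0.07 to 0.17. Npm1 gave -0.03 (interval -0.12 to 0.06) and Fbl 0.06 (-0.11 to 0.24). Nop56 gave 0.11 (-0.04 to 0.26), Dkc1 0.05 (-0.17 to 0.27) and Polr1b -0.05 (-0.30 to 0.19). Lowest of all was Ddx21 at -0.10 (-0.26 to 0.06).

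The 95% intervals of all 41 members lay between -0.41 and 0.46 on the log2 scale, so the data leave differences up to those sizes possible. The member score was higher in the high daughter in 52.7% of divisions (95% Wilson interval 45.9% to 59.5%, which covers counting error only). Over experiments its mean difference was 0.10 ± 0.33 (SD, n = 9), from -0.44 to 0.67, with -0.02 in run 4 and 0.25 in run 5. The G1/S score differed by 0.18 ± 0.25 in the same direction (7 of 9 experiments), and its part in the member score was not tested.

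The wider pathway was read from a list of 100 other ribosome biogenesis genes, 97 of them detected in at least 20% of cells. With the G1/S score 34 rose and 1 fell, where 11.6% of all genes tested rose and 9.0% fell, with a median of 0.35. The helicase gene Ddx27 rose by 0.86 ± 0.09 and Nop9 by 0.87 ± 0.13. With the G2/M score 20 rose and 2 fell (median 0.28), where 12.9% of all genes tested rose. Between sisters 11 were shared, where 16.9% of all genes tested passed, led by Ebna1bp2 (0.40), a large subunit factor. By lysosome label 0 were called, and 0 had an unadjusted p under 0.05.

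Of a list of 14 genes of the Myc network and the response to ribosomal stress, 13 were tested. Apart from Myc, the genes of this list named below were picked by unadjusted p, so they do not stand for the whole list. Myc, a main driver of these genes in growing cells, had 225.5 ± 99.8 CPM in the high and 195.5 ± 84.99 in the low G1/S class, a log2 difference of 0.20 ± 0.32 (adjusted p = 0.704). By G2/M score Myc gave -0.29 ± 0.28 (adjusted p = 0.511). It was shared between sisters (0.27, interval 0.11 to 0.41, adjusted p = 0.0152). Mxd4, which encodes an antagonist of Myc, fell by 1.89 ± 0.20 with the G1/S score, from 55.2 ± 20.1 to 14.5 ± 3.93 CPM, and Mxd1 fell by 0.69 ± 0.20. Trp53, the gene of p53, rose by 0.52 ± 0.08. Across division means Myc had r = 0.44 with the member score, where the median over 11704 genes outside the members was 0.08 and over the other ribosome biogenesis genes 0.40.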

How the data were processed

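The authors deposited raw read counts per gene and library (unit: counts, with no normalization) and metadata labels for each cell (culture experiment, movie, position, colony, plate, lysosome label). Per the submitters' processing notes, featureCounts of Subread 1.5.0 and SAMtools were used. Neither an aligner nor a build is given in the sources used here. All 55450 gene identifiers equal those of GENCODE M21 on GRCm38, and 92 spike-ins were left out. A further 171 count columns of no listed sample were not used. How the lysosome label was set is not given in the sources used here.

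Sisters were joined by movie, experiment, position and colony. Sums per experiment and label or class were tested with edgeR 4.0.16 (TMM, filterByExpr, quasi-likelihood, experiment as block) in R 4.3.3, and slopes and sister correlations (centred on the plate) with limma 3.58.1, both with Benjamini-Hochberg adjustment over all genes tested at 0.05. Each class held the number of divisions of an experiment divided by 3, rounded down. DESeq2 1.42.0 was an alternative. Python 3.11.15 was used otherwise. Scripts were tested on simulated data. As no molecular identifiers were counted, reads may repeat a molecule.

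The members and lists were chosen with earlier results of these data known. Named in each comparison were 7 fixed members, the member with the largest and the smallest value of each role with up to 2 more by unadjusted p, and of the other lists up to 4 genes by unadjusted p and Myc. Other members named were chosen after their values were seen.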

Additional observations from a re-analysis of the deposited data

Results flagged for a closer look

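Over 42 quantities with a value in each of the 9 experiments (the levels of the 41 members and the difference in member score), 3 had an experiment far from the others, where chance flags about 5% of such groups. Heatr1, a small subunit factor, had 142.5 CPM in experiment 60, and 77.6 to 109.3 in the other experiments. Nop56 had 287.1 CPM in experiment 75, and 178.007 to 207.4 in the others. Rrs1, a large subunit factor, had 101.4 CPM in experiment 68, and 46.4 to 68.4 in the others.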

How the results depend on the processing

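Rrp12, Bysl and Rrp9 lacked a count in over 10% of cells, and the part of depth in this was not tested. Calls within a run rest on 5 or 4 experiments. Scaling by TMM left the mean levels of the named members within the spread between experiments. TMM factors balance out over experiments, so such a mean can hardly move, and this is no test of the scaling.

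For G1/S, 26 members and 4.45% of all 55450 genes passed (20.6% of the 11957 tested), and the shares below are also of all 55450. The values were 16 and 2.46% with the divisions of each experiment split at the median score, 15 and 1.27% in run 4 alone, 2 and 0.826% in run 5 alone, and 13 and 2.68% with classes by the score of the sister (chosen after seeing the data). Leaving out each experiment gave 21 to 27 members and 3.54% to 4.40% of genes. DESeq2 called 30 members and 6% of genes, and no filter on low counts gave 24 and 3.73%. Slopes called 30 and 3.88%, and slopes with depth 26 and 3.28%. For G2/M, 13 members and 4.91% of genes passed. The split at the median gave 8 and 3.89%, run 4 gave 2 and 1.62%, and run 5 gave 7 and 1.60%. Slopes called 5 members (Tcof1 and Nhp2 higher, Nolc1, Gnl3 and Ppan lower) and 3.73% of genes. Slopes with depth called 6 (Tcof1 higher, Nolc1, Utp20, Rrp9, Rrp1b and Ppan lower) and 3.85% of genes. Leaving out each experiment gave 8 (without experiment 77) to 14 members and 3.78% to 4.89% of genes. For sisters, 14 members and 3.58% of genes passed. Regressing out cell cycle scores gave 4 and 1.24%, and regressing out depth and the number of detected genes 9 and 3.06%. In run 5 the values were 2 and 1.01%, and by an F test over divisions 17 and 5.58%. On leaving out each experiment they were 10 to 14 members and 2.88% to 3.48% of genes. For lysosome inheritance 0 members passed in any alternative run, and DESeq2 called 4 genes (0.00721%). The cause of these shifts was not tested, except that single runs hold fewer experiments.

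Without the replicate block (the experiment), 22 members and 3.42% of genes passed for G1/S and 9 and 4.2% for G2/M. For lysosome inheritance 0 members and 0% of genes passed without it. Pairing by division, as limma on sister differences, called 0 members for lysosome inheritance.

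Several estimates changed sign, and the cause was not tested. For lysosome inheritance these were Npm1 (0.027 in run 4), Dkc1 (-0.022 in run 4), Polr1b (0.093 in run 5), Nop10 (0.039 in run 4) and Ubtf (0.0075 by limma on sister differences). Leaving out each experiment, Dkc1 ran from -0.038 to 0.11, Polr1b from -0.15 to 0.0077, Nop10 from -0.061 to 0.0066, Rrp12 from -0.16 to 0.042 and Wdr12 from -0.083 to 0.012. For G1/S, Ddx10 was 0.17 in run 5 and Pes1 -0.071 by the score of the sister. For G2/M, slopes gave -0.11 for Nop56, -0.0076 for Polr1b, -0.077 for Ubtf, -0.24 for Nolc1, -0.20 for Gnl3 and -0.15 for Nop2, and slopes with depth gave -0.13, -0.069, -0.053, -0.29, -0.20 and -0.28 for the same genes. Ubtf was further -0.012 by DESeq2, -0.042 by the score of the sister, -0.048 with the split at the median, -0.0090 with no filter, -0.098 in run 4 and between -0.047 and 0.068 on leaving out each experiment. Nop2 was -0.0053 by DESeq2, -0.054 by the score of the sister, -0.036 with the split at the median, -0.0038 with no filter, -0.31 in run 4 and between -0.13 and 0.12 on leaving out each experiment. Gnl3 was -0.038 with the split at the median. Between sisters, Gnl3 was -0.017 in run 5, and Wdr12 was 0.014 in run 5 and between -0.064 and 0.018 on leaving out each experiment.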

Other observations

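Among 11704 detected genes outside the members, those whose division means followed the member score most closely were Hspd1, a mitochondrial chaperonin (r = 0.80), Srm, spermidine synthase (0.77), Cct6a, a subunit of the cytosolic chaperonin (0.76), and the RNA methyltransferase gene Nsun2 (0.76). Pa2g4 (0.74), the chaperone gene Hsp90aa1 (0.74), G3bp1 (0.74), Ifrd2 (0.74) and Ran, the GTPase of nuclear transport (0.73), came next. Other subunits of the cytosolic chaperonin (Cct3, Tcp1, Cct8 and Cct7, 0.68 to 0.71) and the translation factor genes Eif4a1, Eif5a and Eif3b (0.69 to 0.71) were also among the 30 highest. Of these 30 genes 1, Mybbp1a, is in the list of other ribosome biogenesis genes and 0 are in the cell cycle lists. These values are a description over divisions that share libraries and depth, and the genes were picked by them.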
